A study of Neurospora crassa with 94 samples.

Results

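The iaf-1 iaf-2 double mutant of Neurospora crassa, a filamentous fungus, was represented by 2 RNA-seq libraries, the samples whose titles name both deletions, out of 41 RNA-seq libraries and 94 samples in the series. They were compared with the 3 wild type (WT) libraries that carry the same library series number, 118. The iaf-1 gene is NCU00412 and the iaf-2 gene is NCU09388. Also used, in the same library series, were a strain labelled acf iaf-1 iaf-2, called the labelled triple mutant here, and the isw mutant, with 3 libraries each, and, as values beside these, strains labelled acf iaf-1 and acf iaf-2. The single mutants iaf-1 and iaf-2 were in library series 111 and set-7 in library series 112, with 3 libraries and their own 3 WT libraries in each. All were mycelial cultures kept in constant light under standard conditions, per the labels. The labels do not give the mating type or the number of isolates of a strain, nor whether replicates came from separate cultures, so the p-values rest on a spread among libraries that could be purely technical.

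ISWI proteins (IMITATION SWITCH) are ATPases that slide and space nucleosomes, and they act in complexes with partner subunits such as ACF1. In Neurospora the ATPase is encoded by isw (symbol crf4-1), the ACF1 homologue by acf (crf4-2), and iaf-1 and iaf-2 were named as accessory factors of ISWI. The title of the series ties ISWI to gene repression in domains bound by PRC2, the Polycomb complex that methylates histone H3 through its catalytic subunit SET-7. The comparison with WT asks what loss of both accessory factors does while isw and acf are intact.

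Values of series 118 are TPM, reads scaled by gene length and then to 1 fixed total in each library. The double mutant libraries held 21975122 and 14367646 reads in genes, against 15277998, 12934687 and 11859192 in WT, and 9377 and 9174 genes had a read, against 8926, 8884 and 8813 in WT. The 2 double mutant libraries were the least alike pair of one genotype in the library series: the chi-square per degree of freedom between their read counts was 130, against 12.6 to 22.3 between WT libraries and 10.3 to 50.7 between libraries of the other 4 mutants. Between them 591 of 9339 genes differed by over 2-fold on the log2(TPM + 1) scale, against 157 to 207 genes between WT libraries. The limma test used below takes its spread from all 6 groups of the library series together. Its p-values may therefore be too small for the double mutant. When just WT and the double mutant were fitted, 994 of 8554 genes were called, against 2007 of 9339 in the main fit. In 6 libraries of the series, both double mutant libraries among them and no WT library, the table's column name carries a sequencer sample number in place of a genotype. The sources used here do not say what else sets these 6 apart. Counts are therefore also given from a fit with a term for the column name, which libraries of other mutants on both sides make possible.

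Both genes named in the label of the double mutant were near 0 there. NCU00412 stood at 0.417 and 0.597 TPM in the double mutant libraries, against 22.7, 19.8 and 18.2 TPM in WT, and NCU09388 stood at 0.348 and 0.0388 TPM in the double mutant, against 13.6, 11.9 and 9.36 TPM in WT. Both mutant libraries lay far below every WT library for both genes. Summed reads were 23 in the double mutant against 1066 in WT for NCU00412, 42.0-fold lower per read sequenced, and 15 in the double mutant against 861 in WT for NCU09388, 52.1-fold lower. The 2 other genes of the complex did not pass the test: isw averaged 36.6 TPM in the double mutant and 33.0 TPM in WT (limma log2 fold change 0.15 ± 0.15 SE, adjusted p = 0.535), and acf averaged 13.1 TPM in the double mutant and 14.9 TPM in WT (-0.17 ± 0.15 SE, adjusted p = 0.473).

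For the other strains the same check was mixed. In the labelled triple mutant NCU00412 averaged 0.0943 TPM and NCU09388 averaged 0.255 TPM, and isw averaged 2.12 TPM in the isw mutant, all far below WT. The acf gene went against its label: it averaged 26.8 TPM ± 2.58 (SD, n = 3) in libraries labelled acf iaf-1 iaf-2, 25.1 TPM in those labelled acf iaf-1 and 24.6 TPM in those labelled acf iaf-2, each above the 14.9 TPM of WT. The sources used here do not say which part of acf was removed, so reads from outside it and reads from an intact gene cannot be told apart. The set-7 gene, for use further on, stood at 3.93 to 4.92 CPM in the 3 libraries labelled set-7, against 5.93 to 9.02 CPM in WT of their series, lower but not absent. CPM are read counts scaled to 1 fixed library total, with no length scaling.

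Genes beside the deletions were read next. Gene order is that of the RefSeq assembly NC12. NCU00411, next to iaf-1, had 78.5 and 83.9 TPM in the double mutant, against 47.6, 43.4 and 48.7 TPM in WT, and rose (limma log2 fold change 0.79 ± 0.11 SE, adjusted p = 4.99e-05). NCU16684, on the other side, had 40.4 and 33.9 TPM in the double mutant, against 29.8, 30.9 and 35.1 TPM in WT, and was not called (0.21 ± 0.12 SE, limma adjusted p = 0.23). Next to iaf-2, smco-1 had 15.1 and 13.5 TPM in the double mutant, against 8.74, 8.18 and 7.82 TPM in WT, and rose (0.73 ± 0.16 SE, limma adjusted p = 0.00396, or 0.133 with the column name term). The gene on the other side, fmf-1, had no read in any of these 5 libraries. At 2 places away, NCU00410 near iaf-1 rose (0.82 ± 0.13 SE, limma adjusted p = 0.000197). NCU09386 near iaf-2 fell (-0.64 ± 0.19 SE, limma adjusted p = 0.0248). At 3 places from iaf-2, NCU09384 rose (1.74 ± 0.20 SE, limma adjusted p = 5.84e-06). The others at these distances, NCU00409, NCU00413, NCU00414, NCU02759 and NCU02761, were not called. Among genes up to 50 places from a deletion, 22 of 97 tested genes around iaf-1 (22.7%) and 19 of 96 around iaf-2 (19.8%) were called, with medians of 0.01 and -0.02 on the log2 scale, beside 21.5% called and a median of 0.02 over all 9339 genes tested.

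More genes were higher than lower in the double mutant, and among calls of any size the excess lay in genes under 10 TPM in WT. Of 9339 genes tested, 2007 were called at a limma adjusted p under 0.05 (21.5%), of which 1307 were higher (14.0%) and 700 lower (7.50%). Of changes of at least 2-fold, 645 were higher (6.91%) and 88 lower (0.942%), or 678 and 203 without replicate 1 of the double mutant. Among the 1161 tested genes that averaged below 1 TPM in WT 356 were higher and 2 lower, but such genes cannot fall 2-fold on the log2(TPM + 1) scale. Among 1913 genes at 1 to 10 TPM in WT 415 were higher and 74 lower, and among the 6265 genes at 10 TPM or more 536 were higher and 624 lower. Of these 6265, however, 141 were called at least 2-fold higher and 70 at least 2-fold lower. The levels that sort the genes come from the same WT libraries as the fold changes. With the column name term 980 genes were called, 707 higher and 273 lower, and 579 of the 733 genes called with at least 2-fold changes were still called. Without replicate 1 of the double mutant 2566 genes were called, and without replicate 2 1518 were called. In these bulk libraries fewer cells of a type and less RNA per cell cannot be told apart.

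Of the 645 genes called at least 2-fold higher, 262 averaged under 1 TPM in WT (40.6%, beside 12.4% of all genes tested) and 43 had no read in any WT library. Genes this low in WT can pass the filter on low values through libraries where they are higher, so their share may partly be set by it. In the double mutant 358 of them averaged at least 10 TPM and 72 at least 100 TPM. There were 37 genes that averaged under 1 TPM in WT and at least 10 TPM in the double mutant. Of the 88 lower genes, 70 averaged at least 10 TPM in WT and 21 at least 100 TPM. The plot of fold change against level shows both groups.

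**Figure D1:**
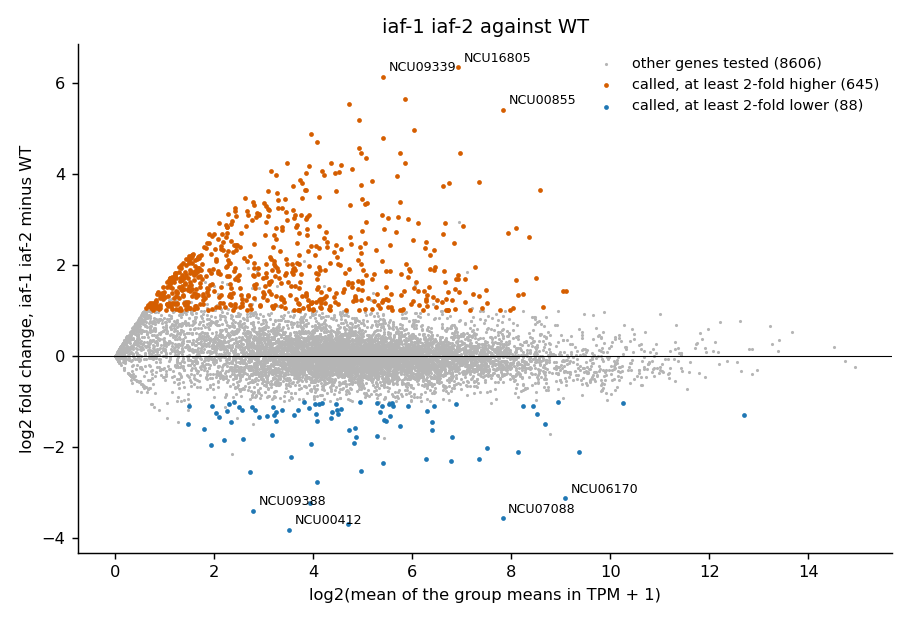
Log2 fold change of iaf-1 iaf-2 minus WT on the log2(TPM + 1) scale (vertical axis) against the log2 of the mean of both group means in TPM plus 1 (horizontal axis), 1 point per gene tested. The 645 genes called at least 2-fold higher (orange) lie mostly at low to middle levels and reach 6.34, and the 88 called at least 2-fold lower (blue) reach -3.82, the value of the deleted iaf-1 gene.

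The highest fold changes belonged to genes that the files name only by locus tag, and to poi-2. NCU16805 had 204 and 275 TPM in the double mutant, against 2.35, 1.11 and 2.58 TPM in WT (limma log2 fold change 6.34 ± 0.19 SE, adjusted p = 8.96e-13). NCU09339 had 102 and 64.1 TPM in the double mutant, against 0.594, 0 and 0 TPM in WT (6.13 ± 0.24 SE, limma adjusted p = 1.89e-11). Its 700 reads in the double mutant against 2 in WT give a ratio of 386 (exact 95% counting interval 106 to 3193). Neither gene overlapped between the groups, which the rule for naming genes requires.

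NCU01943 and NCU00532 had no read in any WT library. NCU01943 had 28.3 and 73.1 TPM in the double mutant and was at least 101-fold higher over a floor of 3 reads in the WT group (limma adjusted p = 2.53e-09), and NCU00532 had 22.7 and 35.4 TPM in the double mutant and was at least 39.7-fold higher (limma adjusted p = 7.62e-08). NCU00855 reached the highest level of the 12, with 599 and 296 TPM in the double mutant, against 6.83, 9.20 and 11.3 TPM in WT (limma log2 fold change 5.41 ± 0.47 SE, adjusted p = 1.28e-06). The 2 mutant libraries differed by about 2-fold for NCU00855, and both lay well above WT.

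The named gene poi-2, which is known from work on perithecium development and is needed for normal fruiting bodies, had 72.0 and 88.9 TPM in the double mutant, against 2.53, 1.28 and 2.13 TPM in WT (limma log2 fold change 4.79 ± 0.28 SE, adjusted p = 3.08e-09). The 6 others of the 12 highest were NCU08969, NCU05358, NCU04034, NCU14096, NCU05788 and NCU00312, with log2 fold changes of 5.64, 5.18, 4.97, 4.70, 4.56 and 4.46. All 12 were called with the column name term and when any 1 library of the double mutant or WT was left out. In the gene order of the reference, NCU16805 and NCU14096 lay 32 genes apart on chromosome IV, and NCU05788 and poi-2 lay 22 genes apart on chromosome VII.

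Besides the deleted genes, the lowest fold changes were those of mig-4, NCU07088 and eas. The gene mig-4 had 1.97 and 3.46 TPM in the double mutant, against 64.1, 39.2 and 39.2 TPM in WT (limma log2 fold change -3.70 ± 0.26 SE, adjusted p = 2.23e-08). NCU07088 had 24.4 and 47.6 TPM in the double mutant, against 392, 423 and 434 TPM in WT (-3.57 ± 0.30 SE, limma adjusted p = 2.64e-07). NCU06170, the most abundant of the 12 in WT, had 84.7 and 145 TPM in the double mutant, against 867, 1047 and 1016 TPM in WT (-3.12 ± 0.37 SE, limma adjusted p = 1.7e-05). For all 3 genes the groups were far apart.

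The gene eas encodes the hydrophobin that coats conidia and aerial hyphae. It had 4.87 and 0.327 TPM in the double mutant, against 26.0, 33.2 and 18.2 TPM in WT (limma log2 fold change -3.22 ± 0.77 SE, adjusted p = 0.00978). The groups did not overlap, but the 2 mutant libraries were far apart, and the call was lost without replicate 2 of the double mutant (-2.15, limma adjusted p = 0.135) and with the column name term (adjusted p = 0.0823). The "hsp30-like protein", a name without a locus tag in the file, averaged 61.3 TPM in the double mutant and 262 TPM in WT (-2.26 ± 0.47 SE, limma adjusted p = 0.00341), and was also lost under those 2 settings. The others of the 12 were NCU07581, NCU04501, NCU00233, NCU05908 and NCU03078, with log2 fold changes between -2.76 and -2.30, beside the 2 deleted genes.

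**Figure D2:**
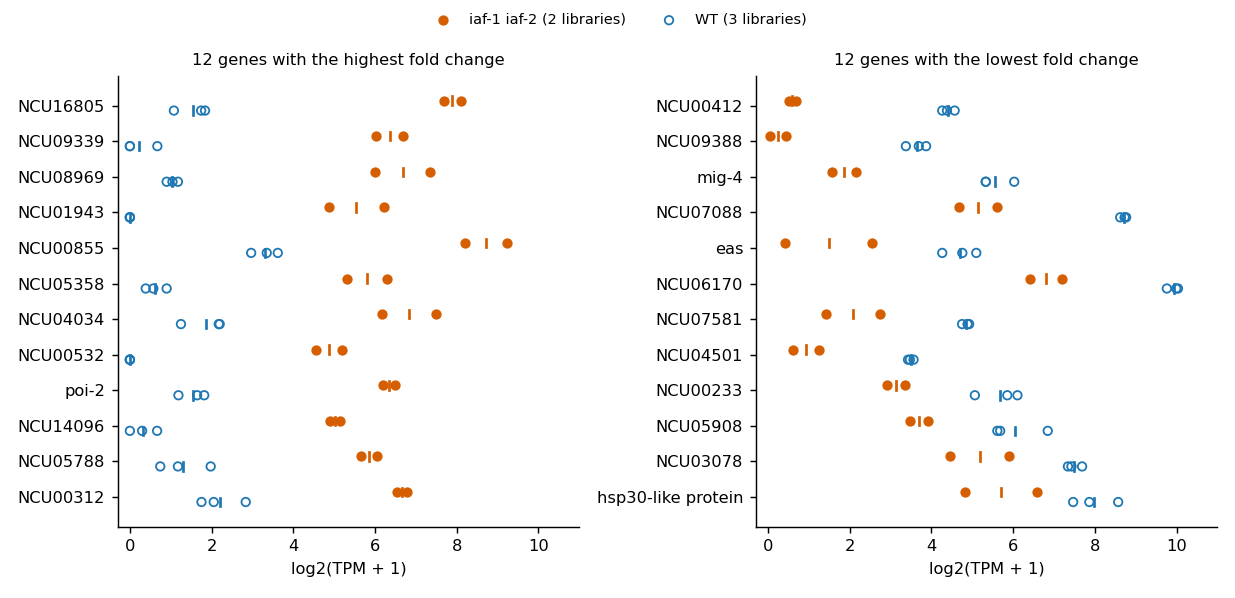
Log2(TPM + 1) in each library for the 12 genes with the highest (left) and the 12 with the lowest (right) fold change by the naming rule, with iaf-1 iaf-2 libraries as filled orange points above the open blue WT points of the same gene and a vertical bar at each mean. The rule admits no gene with overlap between the groups, and the 2 iaf-1 iaf-2 libraries lie farthest apart for eas.

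The conidial and sexual markers that a mycelial culture could hold were examined as whole lists, beside 14.0% called higher and 7.50% called lower over all genes. The summed level of 11 markers of conidia and aerial hyphae was 4317 and 2156 TPM in the double mutant libraries, against 1809, 3481 and 3702 TPM in WT, and the ranges overlapped. Of 10 tested, rca-1, a homologue of the conidiation regulator gene flbD of Aspergillus, rose (limma log2 fold change 0.87, adjusted p = 0.000602, or 0.0531 with the column name term), eas fell, and 8 were not called, among them con-8 with 1481 and 619 TPM in the double mutant, against 267, 756 and 662 TPM in WT. The summed level of 9 markers of sexual tissue was 758 and 487 TPM in the double mutant, against 330, 427 and 387 TPM in WT, and 2 of the 9 were at 0 in each of these 5 libraries. Most of the sum came from asd-1, a gene needed for ascospore development, with 632 and 316 TPM in the double mutant, against 273, 388 and 345 TPM in WT. Of 8 tested, poi-2 and sub-1 rose (sub-1 log2 fold change 0.54, limma adjusted p = 0.022, or 0.163 with the column name term) and 6 were not called. The part of these cell types in the other results was not tested.

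Mating type genes, which differ between strains by background, were read as well. The gene matA-1, of mating type A, had no read in the double mutant, against 0.533, 0.84 and 0.786 TPM in WT, 21 reads in all (limma adjusted p = 0.00728, or 0.135 with the column name term); it averaged 47.6 TPM in libraries labelled acf iaf-1. Strain background and the deletions cannot be told apart for such a gene or for genes linked to it. NCU01943 lay 16 genes from matA-1 and set-3 lay 26 genes from it on chromosome I, and around matA-1 23 of 94 tested genes (24.5%) were called. The pheromone gene mfa-1 had 27.9 and 43.1 TPM in the double mutant, against 31.4, 17.4 and 17.6 TPM in WT, and was not called (0.68 ± 0.57 SE, limma adjusted p = 0.446).

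Chromatin genes were read against 21.5% called over all genes tested. Of 6 tested genes in a list of PRC2 subunits and other chromatin regulators, set-7 and set-3 (NCU01932) rose, the latter not a PRC2 subunit. The gene set-3 had 36.6 and 48.3 TPM in the double mutant, against 24.0, 23.0 and 19.3 TPM in WT (limma log2 fold change 0.90 ± 0.16 SE, adjusted p = 0.00068). The catalytic subunit gene set-7 had 6.05 and 8.26 TPM in the double mutant, against 4.45, 5.63 and 3.19 TPM in WT (0.60 ± 0.18 SE, limma adjusted p = 0.0255), a call lost under 6 other settings. None of 7 histone genes and none of 9 heterochromatin and DNA methylation genes, such as the DNA methyltransferase gene dim-2 and the H3K9 methyltransferase gene dim-5, was called by limma, with medians of 0.07 and -0.07. Without replicate 1 of the double mutant 3 histone genes were higher and 1 was lower, and without replicate 2 of the double mutant 1 heterochromatin gene was lower. Of 7 genome defence genes, dcl-1, which encodes a Dicer ribonuclease, rose: it had 48.9 and 43.9 TPM in the double mutant, against 22.3, 23.8 and 25.0 TPM in WT (0.94 ± 0.16 SE, limma adjusted p = 0.000281).

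Of 16 light and clock genes tested 5 fell and 1 rose, beside 7.50% lower and 14.0% higher over all genes, and the median was -0.41, beside 0.02. The number that fell was 3 with the column name term and 2 when just WT and the double mutant were fitted. The gene al-1, for phytoene desaturase, had 29.4 and 29.3 TPM in the double mutant, against 58.5, 57.4 and 53.2 TPM in WT (limma log2 fold change -0.92 ± 0.17 SE, adjusted p = 0.00071). The gene al-2, for phytoene synthase, had 226 and 206 TPM in the double mutant, against 346, 384 and 376 TPM in WT (-0.77 ± 0.14 SE, limma adjusted p = 0.000602). Also lower were al-3, ylo-1 and bli-3, with log2 fold changes of -0.49, -0.50 and -0.75; the last 2 were not called with the column name term (limma adjusted p = 0.254 for ylo-1 and 0.279 for bli-3). The carotenoid oxygenase gene cao-2 was not called (-0.18, limma adjusted p = 0.354). The phytochrome gene phy-2 rose (1.58 ± 0.19 SE, limma adjusted p = 9.24e-06), and it lay 3 genes from NCU05788, one of the 12 highest. The photoreceptor and clock genes wc-1, wc-2, vvd, cry, frq, frh, phy-1 and nop-1 were not called, with values between -0.70 for vvd and 0.59 for nop-1.

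Many genes of respiratory complex I, the NADH dehydrogenase of mitochondria, fell, in a number that depended on the fit. Of 29 nuo genes tested 14 fell and none rose, beside 7.50% lower over all genes, and the median was -0.34. The largest was nuo10.6, with 255 and 187 TPM in the double mutant, against 490, 453 and 462 TPM in WT (limma log2 fold change -1.10 ± 0.13 SE, adjusted p = 6.82e-06). The next was nuo14.8, with 423 and 309 TPM in the double mutant, against 692, 603 and 789 TPM in WT (-0.93 ± 0.16 SE, limma adjusted p = 0.00039). The number of nuo genes that fell was 3 with the column name term, 2 when just WT and the double mutant were fitted, and 5 to 16 when 1 library was left out, of which 5 was without replicate 2 of the double mutant, 6 without WT replicate 3 and 8 without WT replicate 1. The median stayed between -0.38 and -0.23. All 29 averaged at least 137 TPM in WT, and of the 1482 tested genes at 100 TPM or more in WT 205 were called lower, with a median of -0.10.

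Among enzymes, glycoside hydrolase genes moved both ways. Of 75 tested 16 rose and 7 fell, beside 14.0% higher and 7.50% lower over all genes, with a median of 0.12. The counts were 9 higher and 11 lower without replicate 1 of the double mutant, 10 and 4 with the column name term, and 9 and 3 of 66 when just WT and the double mutant were fitted. The gene gh76-1 had 9.04 and 6.65 TPM in the double mutant, against 0.301, 0.153 and 0.109 TPM in WT (limma log2 fold change 2.89 ± 0.19 SE, adjusted p = 9.25e-09). Also higher were gh13-2 (1.59), gh18-9 (1.52), a gene of the chitinase family, and gh61-6 (1.20), on the log2 scale. The lowest was gh61-2 (-1.27, limma adjusted p = 0.00468). Of 12 genes of cellulose use 3 rose, the beta-glucosidase genes gh1-1 (0.83) and gh3-4 (0.89) and the cellodextrin transporter gene cdt-1 (0.79), and the regulators clr-1, clr-2 and xlr-1 were not called. Beside 14.0% higher over all genes, the number that rose was 2 with the column name term, which lost gh3-4, and 1 when just WT and the double mutant were fitted, which lost gh1-1 as well. Each of the 3 lost its call without replicate 1 of the double mutant, when 3 other members were higher and 1 was lower.

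Of 58 genes with symbols of amino acid synthesis 7 fell, leu-5 (-0.94) and leu-1 (-0.62) with the smallest adjusted p, and 1 rose, cys-14 (0.82). Of these leu-1 encodes an enzyme of leucine synthesis, while leu-5 encodes the mitochondrial leucyl-tRNA synthetase and cys-14 a sulfate permease; the median was -0.14. Beside 7.50% lower over all genes, the number that fell was 2 with the column name term and 3 when just WT and the double mutant were fitted, and without replicate 1 of the double mutant 8 rose and 8 fell. Of 10 heat shock and oxidative stress genes, with a median of -0.27, sod-1 (-0.57) and hsp80 (-0.46) fell, and neither was called with the column name term. Of 7 phosphate genes 1 rose, near the 14.0% called higher over all genes. This gene, pho-2 for alkaline phosphatase, had 22.9 and 25.5 TPM in the double mutant, against 9.26, 12.2 and 7.67 TPM in WT (limma log2 fold change 1.26 ± 0.17 SE, adjusted p = 2.59e-05). Of 7 nitrogen genes gln-2 rose (0.47), again near that share. Of 14 vacuolar ATPase genes 3 fell, beside 7.50% lower over all genes. Of 17 proteasome genes rpn-4 rose (0.60) and rpt-1 fell (-0.41), and of 7 ribosomal protein genes with a crp symbol crp-2 fell (-0.82). With the column name term gln-2 and rpn-4 were not called (limma adjusted p = 0.077 and 0.147), nor was any vacuolar ATPase gene, and none of these 14 was called when just WT and the double mutant were fitted or without WT replicate 1. All 7 crp genes had values below 0 (-0.82 to -0.13, median -0.36). The groups overlapped for crp-2 and its call was lost under 8 other settings, and of the crp genes 5 were lower without replicate 1 of the double mutant (median -0.72) and none without replicate 2 (median -0.06).

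**Figure D3:**
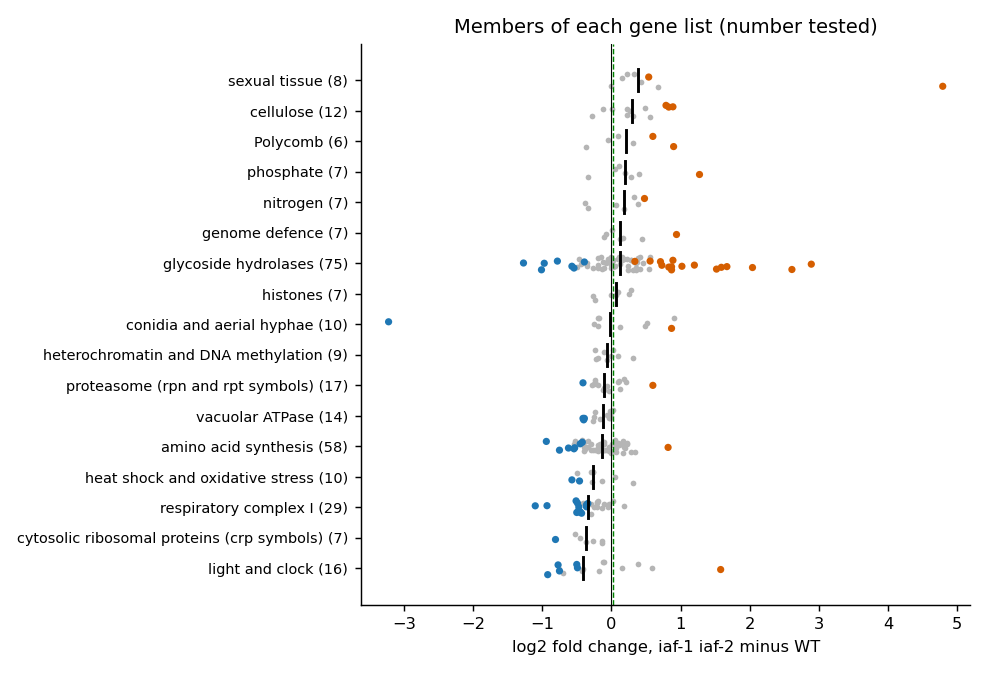
Log2 fold change of iaf-1 iaf-2 minus WT for the tested members of each gene list (number tested in brackets), with called members in orange (higher) or blue (lower), others in grey, a black bar at the list's median and a dashed line at the median of all genes. The light and clock, crp and complex I lists lie mostly left of 0, with medians of -0.41, -0.36 and -0.34.

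The double mutant was then set directly against the labelled triple mutant and against isw, to ask how it differs from a strain also labelled acf and from loss of the ATPase itself. Against the labelled triple mutant 3651 of 9339 genes were called (39.1%), 1587 higher and 2064 lower in the double mutant, and 479 and 970 of these differed by at least 2-fold. Against isw 4573 genes were called (49.0%), 1988 higher and 2585 lower in the double mutant, and 641 and 1038 of these differed by at least 2-fold. With the column name term the counts were 3394 against the labelled triple mutant and 3239 against isw.

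Pheromone genes and others stood far lower in the double mutant than in the labelled triple mutant and in isw. The summed level of the 9 sexual markers, mfa-1, pre-2 and per-1 among them, was 758 and 487 TPM in the double mutant, against 9230 to 19230 TPM in the labelled triple mutant and 29201 to 35984 TPM in isw. Nearly all of the sum in these 2 mutants was mfa-1, with 8434 to 18368 TPM in the labelled triple mutant and 28522 to 35186 TPM in isw. The labels do not give the mating type, and its part in these values was not tested. The 11 conidial markers summed to 4317 and 2156 TPM in the double mutant, against 1414 to 2636 TPM in the labelled triple mutant and 1099 to 1526 TPM in isw. The part of these cell types in the direct differences was not tested. The pheromone gene mfa-1 averaged 35.5 TPM in the double mutant, against 12518 TPM in the labelled triple mutant and 31025 TPM in isw (limma log2 differences -8.38 ± 0.57 SE, adjusted p = 5.54e-08, and -9.76 ± 0.57 SE, adjusted p = 9.85e-09). The pheromone receptor gene pre-2 averaged 2.10 TPM in the double mutant, against 377 TPM in the labelled triple mutant and 275 TPM in isw (limma log2 differences -6.97 and -6.52, adjusted p = 5.68e-14 and 1.17e-13). The perithecial gene per-1, the conidiation gene con-6 and the endoglucanase gene gh5-1 were also lower in the double mutant than in either, with log2 differences of -4.02, -3.16 and -2.28 from the labelled triple mutant and of -3.54, -3.22 and -2.28 from isw, all called by limma. None of the 3 was called against WT (limma adjusted p = 0.225, 0.135 and 0.477), though per-1 was called by edgeR and DESeq2 on recovered reads and con-6 was called by limma without WT replicate 2.

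The 4 lowest genes by the naming rule lay close together on chromosome IV in the contrast with the labelled triple mutant: NCU04869, NCU04860, NCU10644 and NCU10502 were genes 143, 134, 156 and 157 from the same end. NCU10502 had 0.334 and 2.87 TPM in the double mutant, against 3561 to 4033 TPM in the labelled triple mutant and 5607 to 6354 TPM in isw, and its WT libraries had 0.574 to 4.86 TPM. NCU04869 had no read in either double mutant library, against 1446 to 1569 TPM in the labelled triple mutant and 1760 to 1849 TPM in isw. NCU16929 on chromosome V, the fourth lowest against isw, had 2.62 and 6.50 TPM in the double mutant, against 4597 to 6193 TPM in isw (limma log2 difference -9.94 ± 0.30 SE, adjusted p = 3.01e-13).

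Other genes were far higher in the double mutant than in the labelled triple mutant and isw. NCU00995 had 253 and 238 TPM in the double mutant, against a mean of 6.83 TPM in the labelled triple mutant and 10.1 TPM in isw (limma log2 differences 4.99 ± 0.24 SE, adjusted p = 5.26e-11, and 4.53 ± 0.24 SE, adjusted p = 1.7e-10). Its WT level was 975 to 1216 TPM, so it was also lower in the double mutant than in WT (limma log2 fold change -2.11, adjusted p = 6.58e-06). NCU06305 averaged 997 TPM in the double mutant, against 81.2 TPM in the labelled triple mutant, 42.5 TPM in isw and 1010 TPM in WT. NCU09209 averaged 36.1 TPM in the double mutant, against 1.49 TPM in the labelled triple mutant, 1.11 TPM in isw and 52.5 TPM in WT. Both were higher in the double mutant than in isw (limma adjusted p = 2.41e-11 and 7.19e-08), and neither was called against WT. The 3 neighbours NCU05163, NCU05164 and NCU05165, among the 4 highest against the labelled triple mutant, rest on labelled triple mutant libraries that disagree: NCU05164 ranged from 0.147 to 113 TPM there, against 411 and 331 TPM in the double mutant. None of the 3 was called against isw (limma adjusted p = 0.262, 0.459 and 0.442).

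Among the genes highest against isw, NCU07034 was high in the double mutant alone of these 4 groups. NCU07034 had 44.2 and 23.2 TPM in the double mutant, against 0.203 to 0.573 TPM in the labelled triple mutant, 0.178 to 0.560 TPM in isw and 0.506, 1.35 and 1.68 TPM in WT. It was higher in the double mutant than in WT (limma log2 fold change 3.97 ± 0.35 SE, adjusted p = 2.71e-07) and than in isw (4.62 ± 0.35 SE, limma adjusted p = 1.54e-08), and libraries labelled acf iaf-1 averaged 12.5 TPM. It lies next to gh18-9 on chromosome IV, which was also higher in the double mutant than in the labelled triple mutant (log2 difference 0.80, limma adjusted p = 0.000358) and than in isw (0.99, adjusted p = 4.01e-05). Of the 12 highest genes against WT, 5 were higher in the double mutant than in the labelled triple mutant and 2 were lower. Over all 9339 genes tested 1587 were higher and 2064 lower. Against isw 7 of the 12 were higher and 1 was lower, beside 1988 and 2585 over all genes. The 12 were picked by high values in the same 2 double mutant libraries. That choice favours higher values there, so no conclusion is drawn from these counts. NCU09339 averaged 82.9 TPM in the double mutant, against 11.1 TPM in the labelled triple mutant and 9.58 TPM in isw (limma log2 differences 2.77 and 2.96). The gene poi-2 averaged 80.5 TPM in the double mutant, 139 TPM in libraries labelled acf iaf-1 and 90.3 TPM in those labelled acf iaf-2. Its log2 fold change from WT was 4.79 in the double mutant, 5.54 in the labelled triple mutant and 5.25 in isw. For NCU16805, the highest of the 12, these values were 6.34, 5.84 and 5.50. Both genes are on the set-7 list described further on. NCU08969 averaged 113 TPM in the double mutant, against 954 TPM in the labelled triple mutant and 562 TPM in isw (limma log2 differences -3.20 and -2.46).

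**Figure D4:**
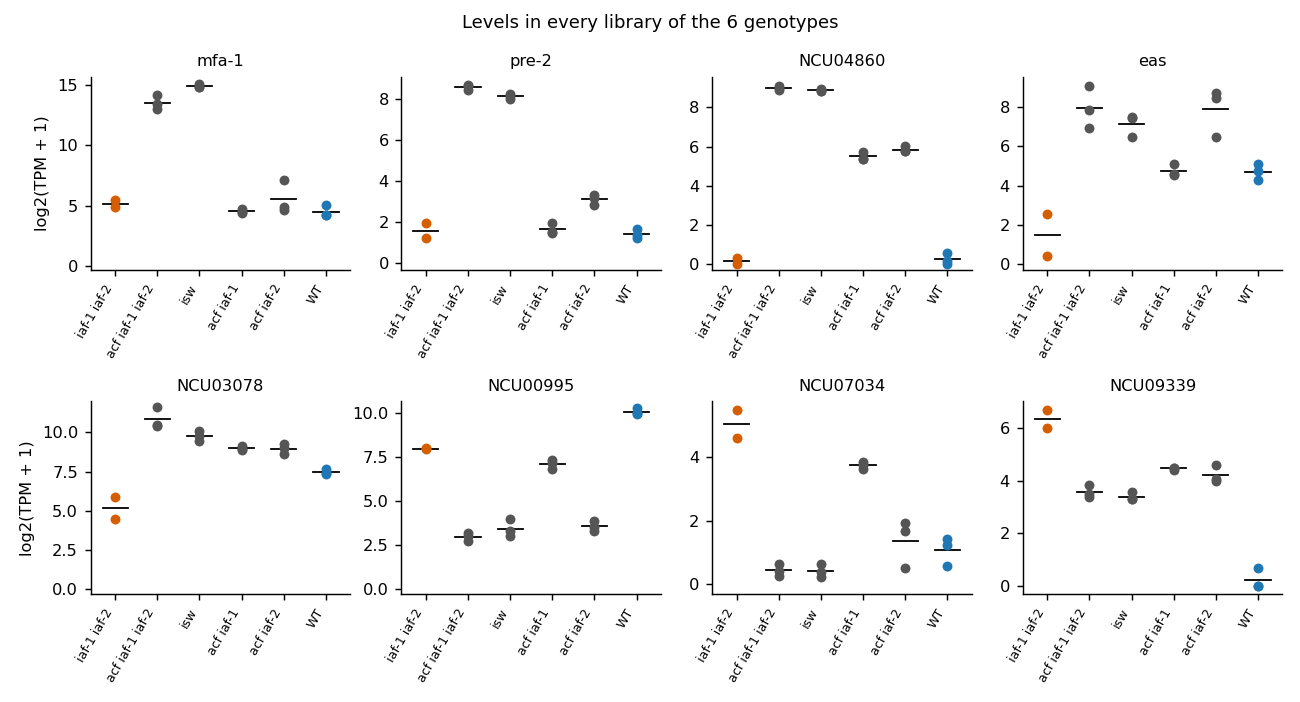
Log2(TPM + 1) of 8 genes in every library of the 6 genotypes of library series 118, with iaf-1 iaf-2 in orange on the left, WT in blue on the right, and a bar at each mean. The genes mfa-1, pre-2 and NCU04860 are far higher in acf iaf-1 iaf-2 and isw than in iaf-1 iaf-2 and WT, while NCU07034 reaches 44.2 TPM in iaf-1 iaf-2 and at most 0.573 TPM in acf iaf-1 iaf-2 and isw.

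Genes higher in libraries labelled set-7 were described in the double mutant as a list from other libraries. In library series 112, 263 genes were called at least 2-fold higher in set-7 than in WT by edgeR's quasi-likelihood test (3.01% of those tested), and 255 of them were tested in series 118. In the double mutant 87 of the 255 were called higher and 7 lower than in WT, 60 of them at least 2-fold higher, which is 23.5% beside 6.91% of all genes, and the median log2 fold change was 0.34 beside 0.02. The list holds many genes that are low in WT, so it was read by WT level as well. Below 1 TPM in WT, 23 of its 91 genes (25.3%) were at least 2-fold higher, beside 22.3% of the 1070 other genes at that level, with medians of 0.32 and 0.36. At 1 to 10 TPM in WT 25 of 92 (27.2%) were, beside 11.9% of other genes, with medians of 0.44 and 0.18, and at 10 TPM or more 12 of 72 (16.7%) were, beside 2.08% of other genes, with medians of 0.17 and -0.04. With the column name term 57 were higher and 4 lower, with a median of 0.35. When just WT and the double mutant were fitted, 198 of the list were tested, 67 higher and 5 lower, with a median of 0.52. Leaving out 1 double mutant or WT library left 80 to 85 higher.

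The same list was farther from WT in the labelled triple mutant and in isw, which share these WT libraries: 154 and 150 of the 255 genes were at least 2-fold higher there, with medians of 1.52 and 1.40. These are 60.4% and 58.8%, beside 15.0% and 14.3% of all genes. Genes low in WT were often higher in both mutants. Below 1 TPM in WT the shares were 84.6% and 87.9% of the list, beside 60.7% and 60.6% of other genes. Tested directly, 129 of the 255 genes were lower in the double mutant than in the labelled triple mutant and 35 were higher, with a median log2 difference of -0.74. Against isw 137 were lower in the double mutant and 44 were higher, with a median of -0.71. Over all genes the medians of these differences were -0.02 and -0.05. By WT level, the list's median difference from the labelled triple mutant was -1.88 below 1 TPM, -0.38 at 1 to 10 TPM and 0.03 at 10 TPM or more, beside -0.81, -0.07 and 0.04 for other genes at those levels. From isw it was -1.97, -0.37 and 0.17, beside -0.76, -0.04 and 0 for other genes. Of 2217 genes below 1 TPM in WT 1161 were tested. Such genes can pass the filter through libraries of other mutants where they are higher. Their differences may therefore partly be set by the filter. When just the compared groups were fitted, the list's median was -0.8 from the labelled triple mutant and -0.73 from isw.

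**Figure D5:**
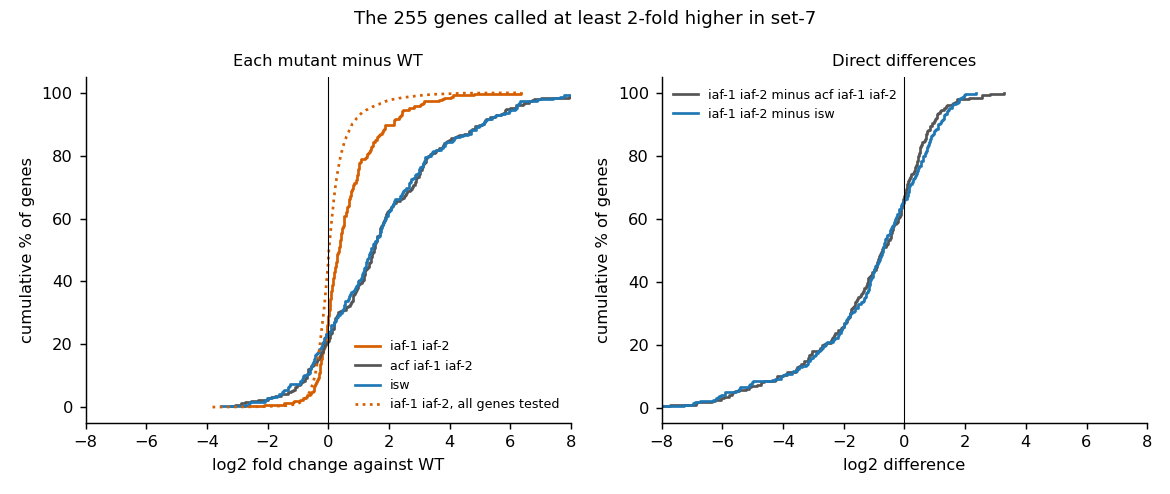
Cumulative percentage of the 255 genes called at least 2-fold higher in set-7 against their log2 fold change from WT in iaf-1 iaf-2, acf iaf-1 iaf-2 and isw, with all genes in iaf-1 iaf-2 dotted (left), and against the direct log2 difference of iaf-1 iaf-2 from the other 2 mutants (right). The iaf-1 iaf-2 line, with a median of 0.34, runs between all genes (0.02) and the lines of the other mutants (1.52 and 1.40).

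Of 618 tested genes among the 50 outermost at each chromosome end, 107 were called higher in the double mutant (17.3%), beside 13.8% of 8688 other genes, and 45 were at least 2-fold higher (7.28%), beside 599 of the others (6.89%), with medians of 0.09 and 0.02. The difference between these shares was not tested. In the labelled triple mutant 122 of the outermost genes (19.7%) were at least 2-fold higher, beside 14.7% of other genes. By chromosome the share at least 2-fold higher in the double mutant ran from 5.51% on V to 10.8% on VII, where 108 of 1002 tested genes were higher.

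The single mutants give values of these genes in strains where 1 factor is deleted. They belong to library series 111 with its own WT, so levels are CPM, and no test crosses the tables. In each group of that series 1 pair of libraries was nearly identical, with a chi-square per degree of freedom of 1.55 to 1.97, little above sampling noise, against 15.1 to 74.5 for other pairs. Counts are therefore given both with every library separate and with each close pair summed to 1 sample, and an SD over 3 libraries includes such a pair. With every library separate, edgeR called 2299 genes in iaf-1 (28.8% of those tested) and 1564 in iaf-2 (19.6%); with the close pairs summed it called 476 in iaf-1, 331 higher and 145 lower, and 4 in iaf-2, all lower, with 1466 genes of iaf-2 at an unadjusted p under 0.05. The deleted gene averaged 0 CPM for NCU00412 in iaf-1 and 0.0848 CPM for NCU09388 in iaf-2, against 49.7 CPM and 51.5 CPM in WT. The gene matA-1 averaged 0 CPM in iaf-1 and 0.0369 CPM in iaf-2, against 17.4 CPM ± 3.39 in WT of that series (SD, n = 3), so strain background and the deletion cannot be told apart there either.

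Of the 645 genes at least 2-fold higher in the double mutant, 445 were tested in series 111 with close pairs summed. In iaf-1 72 of them (16.2%) were called higher and 1 lower, beside 4.08% called higher over all genes, with a median log2 fold change of 0.60 beside -0.03. With every library separate, 147 of 411 were called higher and 21 lower in iaf-1. In iaf-2 none was called by edgeR and the median was 0.29 beside 0 over all genes; with every library separate, 100 of 411 were called higher and 23 lower there. With close pairs summed 271 genes were at least 2-fold higher in iaf-1 (3.34%). Both lists share 72 genes, which is 26.7% of the 270 iaf-1 genes tested in series 118, beside 6.91% of all genes there, and 16.2% of the 445 double mutant genes tested in series 111.

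Of the 12 highest genes, 8 could be tested in the single mutants, and 3 rose in iaf-1 with close pairs summed. NCU16805 averaged 19.4 CPM ± 4.14 in iaf-1, 6.19 CPM ± 1.84 in iaf-2 and 1.75 CPM ± 0.651 in WT (SD, n = 3; edgeR adjusted p = 0.00664 for iaf-1 and 0.137 for iaf-2). The gene poi-2 averaged 17.7 CPM ± 1.55 in iaf-1, 4.93 CPM ± 0.0831 in iaf-2 and 2.56 CPM ± 0.463 in WT (SD, n = 3; edgeR adjusted p = 0.00221 for iaf-1 and 0.155 for iaf-2). NCU04034 averaged 62.9 CPM ± 7.29 in iaf-1, 60.5 CPM ± 2.45 in iaf-2 and 18.5 CPM ± 2.22 in WT (SD, n = 3; edgeR adjusted p = 0.00712 for iaf-1 and 0.0596 for iaf-2). NCU07034 rose in iaf-1 as well, with 4.42 CPM ± 1.06 against 0.410 CPM ± 0.242 in WT (SD, n = 3; edgeR adjusted p = 0.00709).

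Of the 12, 4 could not be tested in series 111, and with close pairs summed the other 5 were called in neither single mutant. With every library separate, NCU08969 was called higher in iaf-1 as well (log2 fold change 1.89, edgeR adjusted p = 0.00914), and NCU16805, poi-2 and NCU04034 were called higher in iaf-2. NCU00855 averaged 17.3 CPM in iaf-1, 9.53 CPM in iaf-2 and 14.7 CPM in WT, NCU00312 averaged 0.648 CPM in iaf-1, 0.926 CPM in iaf-2 and 0.560 CPM in WT, and NCU01943 had no read in any of the 3 groups. Of the 12 lowest genes, 10 were tested, and with close pairs summed the deleted gene fell in each single mutant and NCU05908 fell in iaf-1 (log2 fold change -1.44, edgeR adjusted p = 0.039). The genes mig-4 and NCU07088, the lowest in the double mutant when the deleted genes are set aside, had log2 fold changes of -0.44 and -0.03 in iaf-1. In iaf-2 they had -0.10 and -0.30, and none of these changes was called by edgeR.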

How the data were processed

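Per the submitters' processing notes, the tools were HISAT2 2.1.0, featureCounts from Subread 1.6.2, SAMtools 1.9, Trim Galore 0.4.4 with cutadapt 1.14, and FastQC; libraries were stranded mRNA libraries from Trizol and lithium chloride RNA, per the labels' protocols. The sources used here name no genome build, annotation or strand setting. Overlapping antisense genes and near-identical copies are therefore uncertain, and positions are given by gene order alone. TPM were deposited by the authors for library series 118 and whole-number read counts for series 111 and 112. Reads were recovered from TPM by seeking, for each gene, a step that gives whole reads within 0.001 reads. A gene without such a step is set to no reads and also counts as whole. The share of 100% of 10397 genes is therefore fixed by construction and does not check the recovery. Of the identifiers, 10363 matched RefSeq's NC12 table, used for names and gene order.

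TPM were tested as log2(TPM + 1) with limma 3.58.1 (trend, robust) over the 6 groups of series 118, keeping genes that reached 1 TPM in 2 or more libraries; fold changes on this scale understate changes of low genes. Counts were tested with edgeR 4.0.16 (quasi-likelihood, TMM, robust). Both used Benjamini-Hochberg adjusted p under 0.05 and R 4.3.3; the scripts were tested on simulated data. DESeq2 1.42.0, other pseudocounts (0.1 and 5), filters, scalings, a replicate block and leaving out each library were alternatives. Named genes were the 12 highest and 12 lowest among called genes changed at least 2-fold, with at least 5 TPM in the higher group and no overlap between groups (4 each way for direct differences), up to 4 called members per list and the deletions' neighbours; other list members are given with their values. Members and lists were chosen with earlier results of these data known, and the split of the set-7 list by WT level was added after its values were seen. The ribosomal and proteasome lists were built from symbols (crp, rpn, rpt), since the reference gave no product names. Ratios of reads use library totals, a floor of 3 reads over a group, and exact 95% intervals, which hold for counting error alone, as reads copied by PCR are not separate molecules.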

Additional observations from a re-analysis of the deposited data

Results flagged for a closer look

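For 2 genes named above, eas and NCU03078, the double mutant moved away from WT in the direction opposite to the labelled triple mutant and isw. Their direct differences passed the test. This is no count over all genes. NCU05004 of the set-7 list, for example, had log2 fold changes from WT of -1.12 in the double mutant, 2.05 in the labelled triple mutant and 0.97 in isw. The gene eas was lower than WT in the double mutant (limma log2 fold change -3.22) and higher than WT in the libraries labelled acf iaf-1 iaf-2 (3.26) and in isw (2.43). It averaged 2.60 TPM in the double mutant, against 301 TPM in acf iaf-1 iaf-2, 147 TPM in isw and 25.8 TPM in WT. Its 2 double mutant libraries were far apart, at 4.87 and 0.327 TPM, and its call against WT was lost with the column name term. Libraries labelled acf iaf-1 stood near WT for eas, at 23.4, 33.6 and 22.4 TPM, against 26.0, 33.2 and 18.2 TPM in WT. Those labelled acf iaf-2 stood above WT for eas, at 430, 88.6 and 356 TPM. The log2 difference was -6.49 from acf iaf-1 iaf-2 (limma adjusted p = 2.02e-05) and -5.66 from isw (adjusted p = 6.12e-05). NCU03078 was lower than WT in the double mutant (-2.30) and higher in acf iaf-1 iaf-2 (3.35) and isw (2.29). It had 20.9 and 59.1 TPM in the double mutant, against means of 1975 TPM in acf iaf-1 iaf-2, 891 TPM in isw and 179 TPM in WT. The log2 difference was -5.66 from acf iaf-1 iaf-2 (limma adjusted p = 3.07e-08) and -4.60 from isw (adjusted p = 2.9e-07). The comparisons with WT share the WT libraries, and the direct differences share the double mutant libraries.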

How the results depend on the processing

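The count of called genes in the double mutant against WT was 2007, and it lay between 1759 and 2379 with other pseudocounts, without the filter, with median-ratio scaling, with edgeR (2264) or DESeq2 (2379) on recovered reads and with a replicate block. It was 994 when just WT and the double mutant were fitted and 980 with the column name term, an alternative chosen after seeing the data. Genes at least 2-fold higher and lower numbered 328 and 48 at a pseudocount of 5, against 645 and 88. Leaving out 1 library gave 1484 to 2566 genes against WT, 3080 to 3771 against the labelled triple mutant, 3956 to 4430 against isw, 1544 to 3240 in iaf-1, 769 to 2759 in iaf-2 and 741 to 1585 in set-7. When just the compared groups were fitted the counts were 2138 against the labelled triple mutant and 792 in iaf-2, and with close pairs summed 476 in iaf-1 and 4 in iaf-2. The cause of these shifts was not tested. Same-numbered libraries of the double mutant and WT did not deviate together (correlations -0.25 and -0.10). With 2 double mutant libraries, their deviations mirror each other by construction, so these correlations cannot exclude a pairing. The replicate block gave 1759 genes against WT, 3366 against the labelled triple mutant and 4309 against isw. No named gene that was called turned its direction under any setting run. With 2 libraries of the double mutant, a lone library after leaving one out is assumed to vary like the other groups. Genes under a few reads per library, such as matA-1, are limited by depth.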
